A study of Mus musculus with 4 samples.

Results

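Tumour necrosis factor alpha (TNF-alpha) and the soluble form of its receptor I (sTNFRI) are 2 of the 32 proteins measured in mouse serum on antibody arrays, and they were taken by their row names in the deposited values. The EAE sera came from mice with experimental autoimmune encephalomyelitis (EAE), in which the immune system attacks the myelin of the brain and spinal cord, and the others from controls that the series describes as given vehicle. There were 2 EAE sera and 2 control sera, each read on 1 array, and all mice were C57BL/6 males. The labels name neither the induction of EAE, the day of bleeding, the age of the mice nor the vehicle. The protocol collects serum into a common tube and names no number of mice per sample, so p-values reflect the spread among these 4 sera alone, and that spread may be technical.

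TNF-alpha, the product of the mouse gene Tnf, is a cytokine made mainly by macrophages, microglia and activated T cells. It is made as a membrane protein that the protease ADAM17 cuts from the cell surface, and the released protein acts as a trimer. Its receptor I, the product of Tnfrsf1a, is present on most cell types and carries a death domain that leads to NF-kappaB signalling or to cell death. The same protease releases the outer part of the receptor, and this soluble receptor circulates, binds TNF-alpha and can hold it away from cells. In EAE, signalling through receptor I is known to promote inflammation and demyelination. The labels do not say whether the antibodies of the array detect TNF-alpha that is bound to its soluble receptor.

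TNF-alpha was lower in EAE serum, close to the background of the array. In the deposited signal, the difference of sTNFRI was smaller than the gap between its EAE samples. The signal of TNF-alpha was 5.26-fold lower in EAE than in control serum, and that of sTNFRI was 1.20-fold lower with overlapping groups. The ratio of receptor signal to ligand signal was therefore higher on both EAE arrays than on both control arrays, by 4.37-fold on average. The signal meant here is the deposited one, with the blank spots of the array set to 0 and its positive-control spots to 1, and is called the normalised signal.

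The ligand is described first. Before any correction, the spot intensity of TNF-alpha was 12316.5 and 11389.5 on the EAE arrays and 20114 and 21617.5 on the control arrays. The brightest background value on the same arrays, a single blank spot in each case, was 11355 and 11087 on the EAE arrays and 10916.5 and 11167.5 on the control arrays. Both EAE values thus lay above every background value, but only narrowly. They were 1.08 and 1.03 times the brightest background spot in EAE, against 1.84 and 1.94 times in controls.

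The normalised signal of TNF-alpha was 0.0552 and 0.0405 in EAE serum and 0.230 and 0.270 in control serum. All EAE values were below all control values, as for 31 of the 32 proteins (96.9%), and the gap of 0.175 between the nearest values of the groups was wider than the 0.0147 between the EAE arrays and the 0.0401 between the control arrays. The means were 0.0479 ± 0.0104 in EAE and 0.250 ± 0.028 in controls (SD, n = 2 each). The log2 difference was -2.40 ± 0.27 (SE), with a 95% interval of 3.31-fold to 8.37-fold lower, and passed the threshold of 0.05 (limma fitted over all 32 proteins, adjusted p = 0.000503). In the same fit 30 of the 32 proteins were lower in EAE past the threshold, or 93.8%, and 0 were higher (0 also at an unadjusted threshold of 0.05), so a call as lower does not set TNF-alpha apart from the panel. Permuting the 4 TNF-alpha values over the sera (exact test, two-sided) gave p = 0.333, the smallest that 2 against 2 samples can give.

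The size of the TNF-alpha difference depended on which background was taken away. TNF-alpha lay 2334.95 and 1640.05 intensity units above the blank average on the EAE arrays, and the single blank spot itself lay 1373.45 and 1337.55 units above that average. With no background subtracted and the intensity divided by that of the positive control, a scale called brightness here, TNF-alpha was 1.68-fold lower (log2 difference -0.75, limma adjusted p = 0.00283), and 90.6% of the proteins were called lower. With the negative-control average subtracted it was 7.45-fold lower (log2 difference -2.90, limma adjusted p = 0.0143), where 77.8% of the 27 proteins that could be fitted were called lower, and with the single blank spot subtracted it was 17.0-fold lower (log2 difference -4.09, limma adjusted p = 0.00723), with 87.5% of 24 proteins called lower. The direction was the same on these scales, and the fold was not fixed by the data to better than this range.

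**Figure D1:**
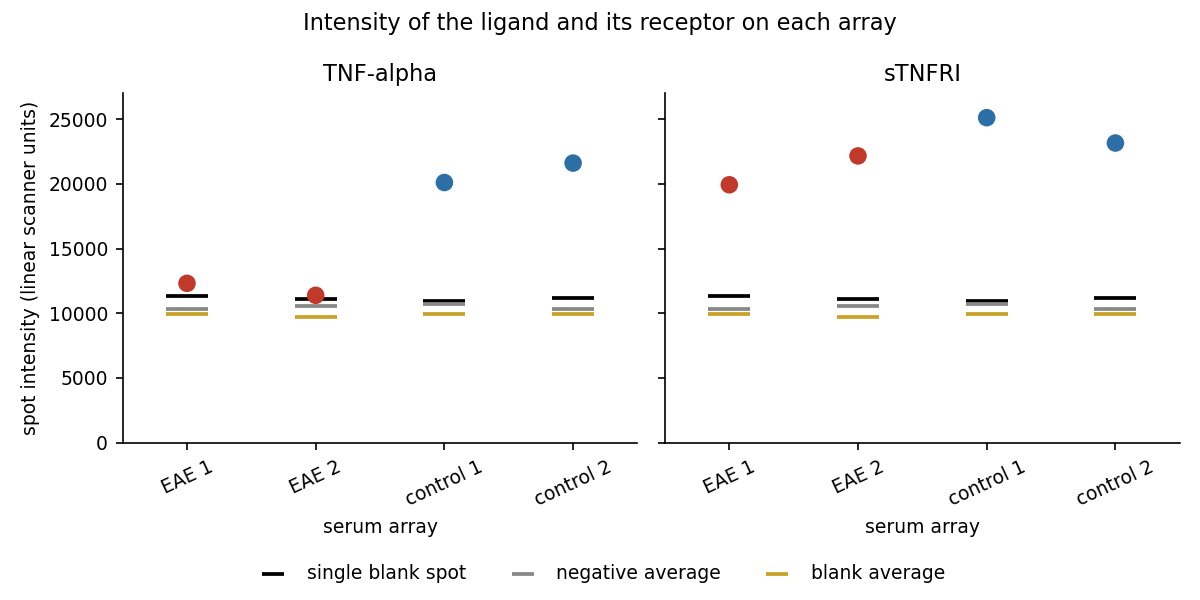
Spot intensity in linear scanner units of TNF-alpha (left panel) and sTNFRI (right panel) on the 2 EAE arrays (red) and the 2 control arrays (blue), with horizontal marks for the 3 background values of each array. TNF-alpha sits just above the single blank spot on the EAE arrays, at 12316.5 and 11389.5, while sTNFRI stays well above background on all 4 arrays.

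The receptor stayed clear of background in every serum. Its intensity was 19940 and 22173 on the EAE arrays and 25130 and 23168.5 on the control arrays, or 1.76 and 2.00 times the brightest background spot in EAE and 2.30 and 2.07 times in controls. In uncorrected intensity the EAE values were both below the control values, by 995.5 units at the nearest, less than the 2233 units between the EAE arrays and the 1961.5 units between the control arrays. The difference of the group means on that scale, -3092.75 units, was larger in size than either gap between replicates.

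After blank subtraction and scaling to the positive control, sTNFRI had a normalised signal of 0.236 and 0.307 in EAE serum and 0.343 and 0.306 in control serum. The groups overlapped, since EAE array 2 came out marginally above control array 2. This overlap arose on scaling, because the positive-control average was 52253.33 and 50210 on the EAE arrays and 54201.5 and 53283.5 on the control arrays. The means were 0.271 ± 0.051 in EAE and 0.324 ± 0.027 in controls (SD, n = 2 each). The log2 difference of -0.27 ± 0.26 (SE) did not pass (limma adjusted p = 0.346), and permuting the 4 values (exact test, two-sided) gave p = 0.667. The 95% interval of the log2 difference ran from -0.91 to 0.37, which extends to a receptor signal 1.88-fold lower in EAE and does not show that the receptor was equal in the groups.

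The receptor was less affected by the choice of background than the ligand. The sTNFRI signal was 1.09-fold lower in brightness, 1.21-fold lower with the negative-control average subtracted and 1.25-fold lower with the single blank spot subtracted. None of these differences passed, with limma adjusted p-values of 0.249, 0.340 and 0.309 in that order.

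The ratio of sTNFRI to TNF-alpha was formed on each array from the normalised signals. It was 4.27 and 7.58 on the EAE arrays and 1.49 and 1.13 on the control arrays. Both EAE ratios were above both control ratios, and the lowest EAE ratio was 2.86 times the highest control ratio. The mean ratio was 5.92 ± 2.34 in EAE and 1.31 ± 0.25 in controls (SD, n = 2 each). On the log2 scale the ratio averaged 2.51 ± 0.59 in EAE and 0.38 ± 0.28 in controls (SD, n = 2 each), a difference of 2.13. No p is given for the ratio, because the pair was chosen with earlier results of these data known and the design cannot reach the threshold in a permutation test. The antibodies may differ in affinity and each protein has its own spot, so a ratio above 1 does not mean that receptor molecules outnumbered ligand molecules, and only the comparison between arrays can be read.

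The positive control cancels in this ratio, as does any factor that multiplies all proteins of an array alike, whereas the subtracted background does not. With nothing subtracted, the ratio was 1.62 and 1.95 on the EAE arrays and 1.25 and 1.07 on the control arrays. With the negative-control average subtracted it was 4.83 and 13.6 in EAE and 1.54 and 1.14 in controls. With the single blank spot subtracted it was 8.93 and 36.6 in EAE and 1.55 and 1.15 in controls. The EAE ratios stayed above the control ratios under each treatment, and the average fold between the groups was 1.53, 6.14 and 13.6 in that order. The control ratios hardly moved, and the spread between the EAE ratios widened with the background taken away, since the TNF-alpha signal on EAE array 2 then approached 0.

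**Figure D2:**
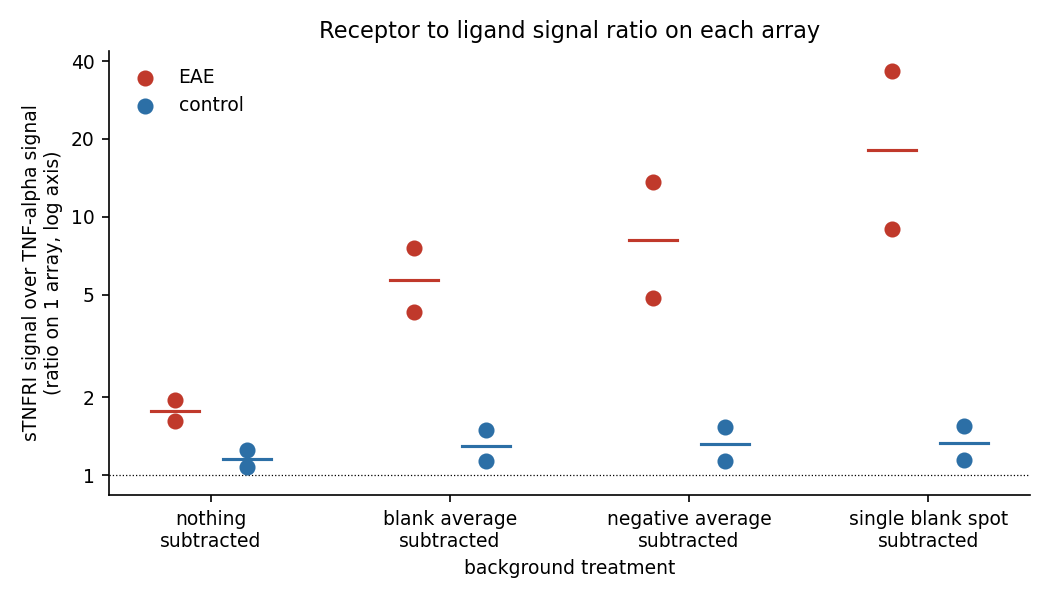
Ratio of sTNFRI signal to TNF-alpha signal on each array (log axis), for EAE (red, left of each pair) and control (blue, right), under 4 background treatments, with horizontal lines at the mean of the log2 ratios (n = 2 each). The control ratios lie between 1.07 and 1.55 under every treatment, and the EAE ratios range from 1.62 with nothing subtracted to 36.6 with the single blank spot subtracted.

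The higher receptor ratio in EAE was shared by most other proteins of the panel. When sTNFRI was set against each of the 31 other proteins, both EAE ratios exceeded both control ratios for 29, or 93.5%, and overlapped for CTACK and IL-4. The median fold of these 31 ratios between EAE and control was 2.99, and the ratio to TNF-alpha had the 8th highest, at 4.37. IL-17 gave the highest, at 12.0, but was at background on both EAE arrays. When TNF-alpha was set against each of the 31 others, both EAE ratios lay below both control ratios for 22, or 71%, and above them for 3, or 9.68%. The 3 were 6Ckine, IL-13 and IL-17, none of them above background on an EAE array. These ratios share the values of 1 member and are not independent of each other.

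Within each group the 2 proteins differed in opposite directions between arrays. On EAE array 2 compared with EAE array 1, sTNFRI was higher by 0.38 and TNF-alpha lower by 0.45 (log2 difference -0.45 in normalised signal). On control array 2 compared with control array 1, sTNFRI was lower (log2 difference -0.17) and TNF-alpha higher by 0.23. Only 5 of the 32 proteins were higher on EAE array 2 than on EAE array 1, namely Eotaxin, G-CSF, IL-13, IL-6 and sTNFRI. The median absolute log2 gap between replicate arrays over the 32 proteins was 0.38 in EAE and 0.27 in controls, so the gaps of both members were of the usual size.

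The panel as a whole shifted, and the members are read against it. Over the 32 proteins of an array, the median normalised signal was 0.0659 and 0.0556 in EAE and 0.236 and 0.250 in controls, 4.01-fold lower on average, while the positive-control average differed by -4.67% and the blank average was 9866 ± 164 in EAE and 9924 ± 22 in controls (SD, n = 2 each). The cause of this shared shift was not tested. Blank and negative spots cannot show how much serum an array received. All 32 proteins lay above background on both control arrays, and 24 did so on both EAE arrays, with TNF-alpha and sTNFRI among them.

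Ordered by difference in normalised signal, TNF-alpha had the 8th largest fall of the 32 proteins. Of the 7 with a larger measured fall, 6 had EAE values at background on both arrays, so that their measured falls are not sizes to rank. With bounds applied, IL-13 was still at least 7.22-fold lower, above the fall of TNF-alpha and within the 95% interval of TNF-alpha. The bounds of the others among these lay below the TNF-alpha fall, the highest at 4.86-fold for 6Ckine. Among the 24 proteins above background on both EAE arrays, TNF-alpha came second after Eotaxin, a chemokine for eosinophils, which was 5.71-fold lower, and the T cell growth factor IL-2 followed at 4.74-fold lower. The 95% intervals of these neighbours overlapped that of TNF-alpha. In brightness TNF-alpha had the 7th largest fall of the 32. Of the proteins above background on both EAE arrays, IL-12p70, VEGF, GM-CSF, TARC and Eotaxin then fell more. The median over all 32 proteins was 3.57-fold lower as measured, or 2.88-fold with proteins not above background set to their bounds, and the interval of TNF-alpha started at 3.31-fold.

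At the other end sTNFRI showed the smallest difference of the panel in normalised signal, followed by IL-4, which drives T helper 2 responses, at 1.38-fold lower, and IL-10, an anti-inflammatory cytokine, at 1.71-fold lower. Their intervals overlapped that of sTNFRI. The EAE intensities of IL-4 (21733.68 and 19756.56) and IL-10 (12483.15 and 11404.01) are recorded in hundredths. All other protein intensities are recorded in a coarser step, so these values may have been derived differently, which was not tested. In brightness IL-10 showed the smallest difference and sTNFRI the next. IL-10 lay near background in every serum, at 1.10 and 1.03 times the brightest background spot in EAE and 1.26 and 1.21 times in controls. Its intensity thus had little room to fall, unlike that of sTNFRI.

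**Figure D3:**
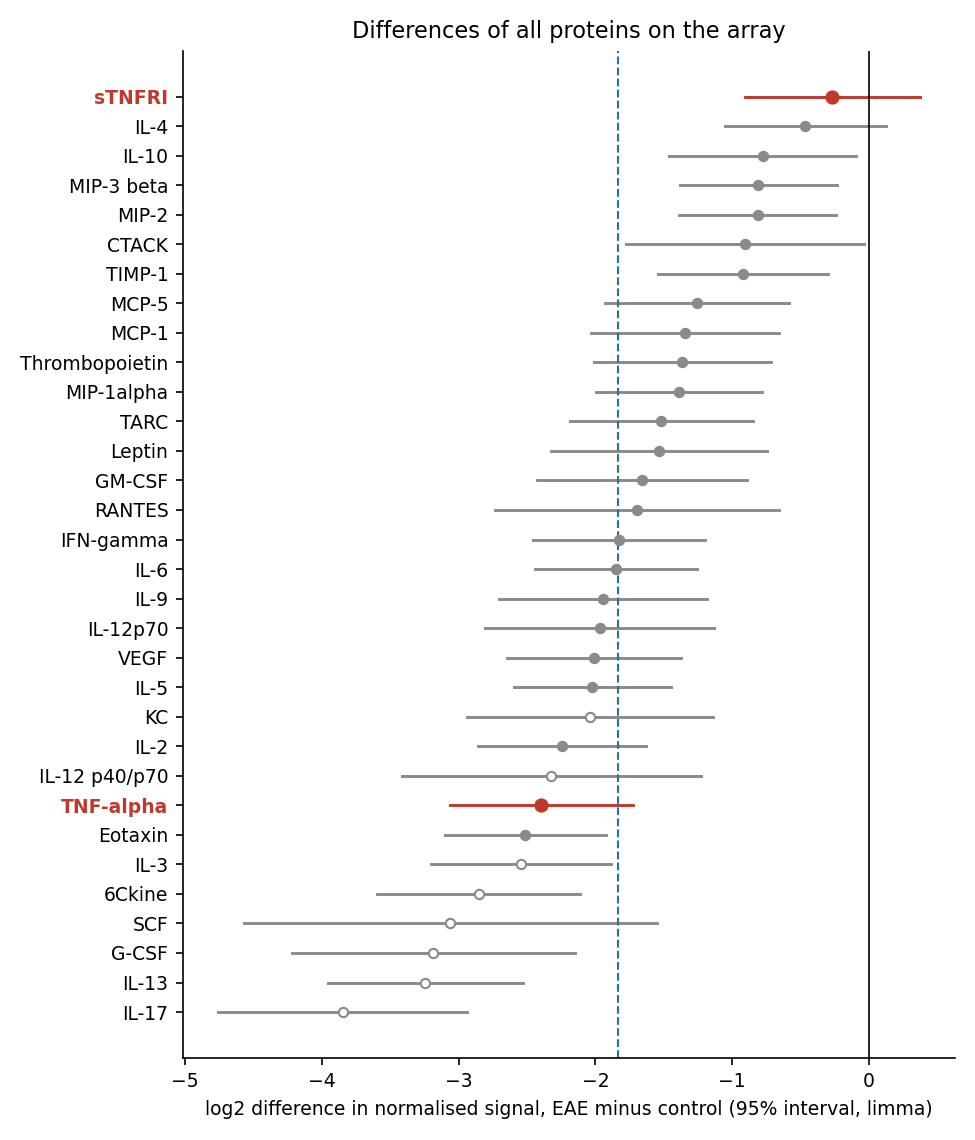
Log2 difference in normalised signal, EAE minus control, of all 32 proteins with 95% intervals (limma, n = 2 each), with TNF-alpha and sTNFRI in red, open circles for proteins not above background on both EAE arrays, a solid line at 0 and a dashed line at the median of -1.84. TNF-alpha lies at -2.40, and sTNFRI lies at -0.27 with an interval that includes 0.

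Setting each array to its own median normalised signal removes the shared shift by construction. On that scale sTNFRI was higher in EAE by 1.73 ± 0.29 on the log2 scale (SE, 3.33-fold, limma adjusted p = 0.00333), the highest of the 32 proteins, and its direction was thus opposite to that relative to the positive control. Both EAE values of sTNFRI then lay above both control values, as for 37.5% of the proteins. TNF-alpha kept its direction at -0.39 ± 0.24 (SE) and did not pass (limma adjusted p = 0.221), although its groups did not overlap, with both EAE values lower, an ordering that 25% of the proteins showed. On this scale 21.9% of the proteins were called higher and 9.38% lower, and the median difference over all proteins was 0.17. Those called lower were 6Ckine, IL-13 and IL-17, all at background on both EAE arrays, so no protein above background there was called lower. Quantile normalization gave 0.95 for sTNFRI (limma adjusted p = 0.164) and -0.35 for TNF-alpha (limma adjusted p = 0.315), neither past the threshold. Relative to the panel, the receptor was thus called higher in EAE under 1 of these scalings, and the ligand was called different under neither.

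**Figure D4:**
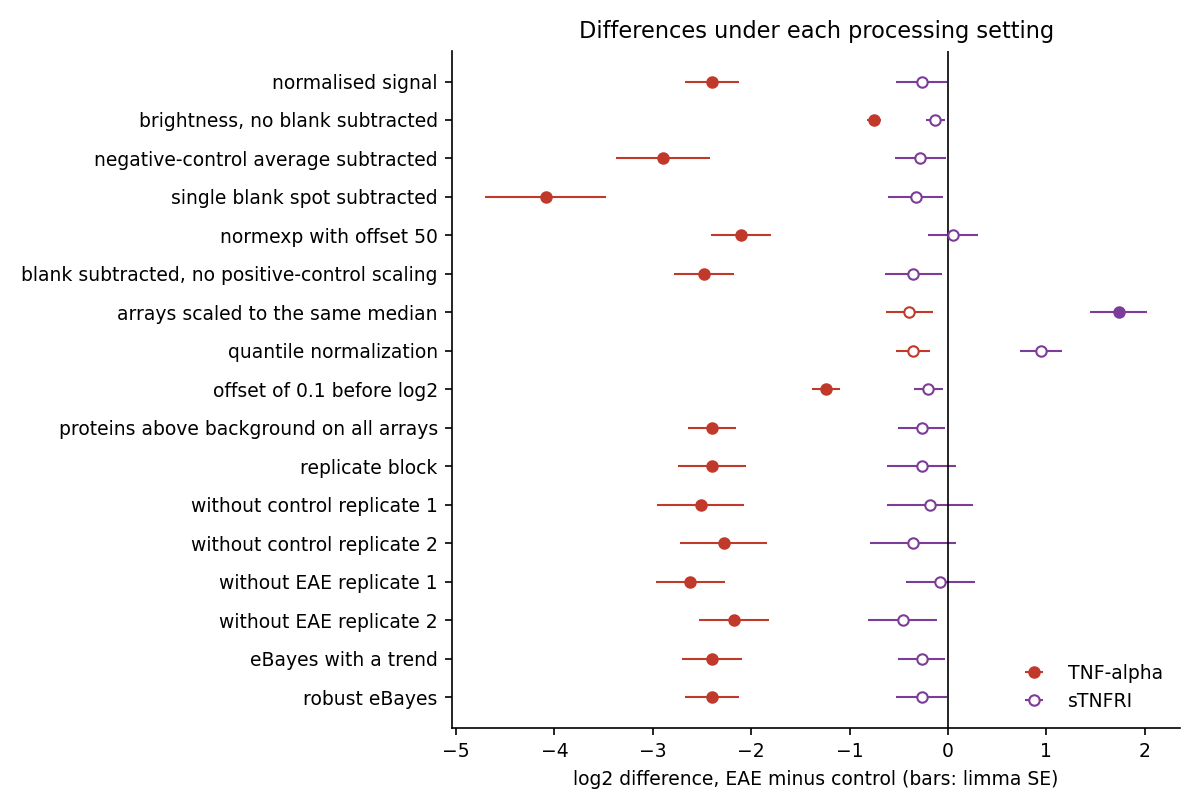
Log2 difference, EAE minus control, of TNF-alpha (red) and sTNFRI (purple) under each processing setting, with bars for the limma SE and filled circles where the adjusted p was under 0.05. TNF-alpha ranges from -4.09 to -0.35, and sTNFRI from -0.46 to 1.73, with values above 0 where arrays were made equal across the panel and, at 0.05, with normexp.

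The proteins with the most similar profiles were found from the distance between log2 normalised signals over the 4 arrays, each protein centred on its own mean. IL-2, IL-3, a growth factor of blood cell precursors, and VEGF, an angiogenic factor, were nearest to TNF-alpha, with distances of 0.20, 0.25 and 0.46. The IL-3 spots were at background on both EAE arrays, so the EAE part of that profile is that of background. IL-4 and the chemokines MIP-3 beta and MIP-2 were nearest to sTNFRI, at 0.48, 0.62 and 0.65. The limit given above for the EAE intensities of IL-4 applies to its profile too. The nearest neighbour of the receptor was thus farther away than that of the ligand, and with 4 arrays these distances are a description only.

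Of 11 names on the list of TNF family ligands and receptors, only the 2 members described here were measured. Among proteins whose genes TNF-alpha is known to induce through NF-kappaB, 9 of 18 listed were measured, and all 9 were lower in EAE past the threshold (limma, normalised signal), beside the background of 93.8%. Their median was 3.16-fold lower as measured, against 3.57-fold for all 32 proteins. With bounds applied to both it was 3.16-fold against 2.88-fold, so which was larger depended on the bounds. IL-6, which drives the acute-phase response, had 0.0534 and 0.0623 in EAE and 0.212 and 0.203 in controls, and was 3.60-fold lower. The neutrophil chemokine MIP-2 had 0.360 and 0.338 in EAE and 0.621 and 0.605 in controls, and was 1.76-fold lower. Both proteins had groups that were far apart compared with their replicates.

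Among monocyte chemokines on this list, MCP-1 was 2.54-fold lower and MCP-5 was 2.39-fold lower. MIP-1alpha, RANTES and GM-CSF, which attract or activate leukocytes, were 2.62-fold, 3.24-fold and 3.16-fold lower. KC, another neutrophil chemokine, was above background on 1 EAE array and was 4.11-fold lower as measured, or 3.25-fold when its other EAE value is replaced by the lowest one above background. G-CSF, which drives neutrophil production, was above background on neither and was at least 3.21-fold lower. After scaling to the array median, 0 of the 9 were called lower by limma and 1 was called higher, beside 9.38% and 21.9% of all proteins. At an unadjusted threshold of 0.05 these counts were 1 lower and 4 higher of the 9, beside 4 lower and 11 higher of the 32, and the list median was 0.34 against 0.17 for all proteins.

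Of 6 cytokines known to act together with TNF-alpha or to oppose it, 5 were measured and all 5 were lower in normalised signal past the threshold, beside 93.8% of all proteins. On arrays scaled to the same median, limma called 1 of the 5 lower, 1 higher and 3 neither, with a list median of 0.16 against 0.17 for all proteins. The 1 called lower was IL-17, at background on both EAE arrays, and the 1 called higher was IL-10. IFN-gamma, the T helper 1 cytokine, was 3.55-fold lower, and IL-12p70, which promotes T helper 1 cells, was 3.92-fold lower. IL-17, the T helper 17 cytokine, was at least 2.79-fold lower. IL-10 had 0.0592 and 0.0409 in EAE and 0.0866 and 0.0821 in controls, and did not pass in brightness, where 4 of the 5 were called lower, beside 90.6% of all proteins.

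Proteins from cells that could release TNF-alpha or add to serum followed the panel relative to the positive control. The summed normalised signal of 8 T lymphocyte cytokines was 0.582 and 0.497 in EAE and 1.63 and 1.88 in controls, and 7 of the 8 were called lower, beside 93.8% of all proteins. IL-4 did not pass in normalised signal, and 3 of the 8 were at background on both EAE arrays. In brightness all 8 were called lower, beside 90.6% of all proteins, with IL-4 among them (limma adjusted p = 0.0216). The summed signal of the 3 measured proteins which platelets release on clotting was 0.407 and 0.280 in EAE and 0.954 and 0.874 in controls, and all 3 were called lower, beside the same 93.8%. Leptin, a fat tissue hormone, had 0.0556 and 0.0397 in EAE and 0.169 and 0.110 in controls. On arrays scaled to the same median, 2 of the 8 T lymphocyte cytokines were called lower, 1 higher and 5 neither (list median -0.13). The 2 called lower were IL-13 and IL-17, both at background on both EAE arrays, and the 1 called higher was IL-4. On that scale the platelet proteins had a median of 0.31, above 0, with 1 of the 3 called higher, and leptin was at 0.47 and did not pass (limma). The part of these sources in the TNF-alpha difference was not tested, and in serum fewer producing cells and less protein released per cell cannot be told apart.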

How the data were processed

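Biotin-labelled antibody arrays of 4 mouse sera were used, each with 32 proteins and 4 control rows. The deposited intensity values are spot brightness, neither background-subtracted nor scaled, and control spots had been averaged, per the file headers. The authors also deposited a ratio for each protein, and recomputing it showed that both the intensity and the positive-control average had the blank average subtracted before division (largest deviation 1.24e-07). Names were matched ignoring hyphens, spaces and Greek letters. The labels name no imager or spot-finding software.

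The log2 normalised signal of all 4 samples was fitted with group as the only term (limma 3.58.1, R 4.3.3, lmFit and eBayes, two-sided), with p-values adjusted by Benjamini-Hochberg over the 32 proteins and a threshold of 0.05. The fit has 2 residual degrees of freedom, to which pooling across proteins added 4.09. A protein was called above background where its intensity exceeded the blank average, the negative average and the single blank spot of its array. For a protein below that on both EAE arrays, the fold is a bound, the control mean of log2 signal against the mean of, per EAE array, its own value or, if higher, the lowest one of any protein above background. Named proteins are both members, the measured proteins of 3 lists and the 3 nearest profiles of each member, with 3 marker lists beside them. The members and lists were chosen with earlier results of these data known. The test was tried on simulated data, and the number of arrays limits the precision. Alternatives were other background and scaling choices, an offset, a filter, a replicate block, 2 other variance models and leaving out each array.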

Additional observations from a re-analysis of the deposited data

How the results depend on the processing

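TNF-alpha was lower in EAE under all 16 alternatives and stayed past the threshold in 14, and it did not pass once arrays were given the same median (-0.39) or under quantile normalization (-0.35). Its log2 difference was -2.62 to -2.17 with 1 array left out, where the direction could not change because the groups did not overlap. The filter, the replicate block and the other variance models could not move the TNF-alpha difference either, which stayed at -2.40. The sTNFRI difference turned positive with arrays scaled to the same median (1.73, past the threshold here alone), quantile normalization (0.95) and normexp with an offset of 50 (0.051), and was -0.46 to -0.08 with 1 array left out. The log2 ratio of sTNFRI to TNF-alpha was higher in EAE under all 12 alternatives. It was 0.62 with no background subtracted, 2.62 with the negative average and 3.76 with the single blank subtracted. With quantile normalization it was 1.30, and with an offset of 0.1 it was 1.04. With 1 array left out it was 1.71 to 2.54, where the direction could not change because the groups did not overlap. A factor on a whole array cancels in the ratio, so equal medians or no positive-control scaling left it at 2.13 by construction. The number of proteins lower in EAE, 30 of 32, was 10 with normexp, 3 once arrays were given the same median and 0 under quantile normalization (limma, 2 at an unadjusted threshold of 0.05), and 25 to 30 with 1 array left out. Equal medians or quantiles remove a shared shift by construction, and the cause of the lower normexp count was not tested.

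Replicate numbers are shared by the groups, but nothing ties control 1 to EAE 1. Their deviations from the group means correlated with r = 0.33 over the 32 proteins, and with 2 pairs this does not establish pairing. With the replicate block TNF-alpha stayed at -2.40 (limma adjusted p = 3.22e-07), sTNFRI at -0.27 (limma adjusted p = 0.445) and the count at 30, so no call changed. That fit leaves 1 residual degree of freedom per protein and leans on the pooled spread. Subtracting the negative average or the single blank left 5 and 8 proteins out, since they had no positive signal on some array. With an EAE array left out, the lone EAE serum is taken to vary as the controls do.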
